A study of Mus musculus with 35 samples.

Results

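Memory CD8 T cells from the spleen were set against CD8 single-positive cells from the thymus, both from mice that carry Cre and 2 floxed alleles of Dot1l (KO). The comparison asks how a peripheral memory phenotype differs from the last thymic stage when both carry that genotype. All genes with enough counts were included, and 8 of the 35 RNA libraries of the series carry the comparison. The KO memory group holds 4 libraries of spleen cells sorted as CD44+ CD8 cells of the memory phenotype, and the KO thymus group holds 4 libraries of CD8 single-positive thymocytes, both of genotype Lcre+/-;Dot1Lfl/fl on the C57BL/6 strain. The same pair of subsets of Lcre+/-;Dot1Lfl/wt mice (Het, 4 memory and 4 thymus libraries) and of Lcre+/-;Dot1Lwt/wt mice (WT, 4 memory and 3 thymus libraries) served to ask whether the memory-thymus difference depends on genotype, and 4 libraries of KO naive spleen cells (CD44-) were read beside them. Every group carries the Cre transgene. The labels spell out neither its promoter nor the ages, and they do not say whether replicates of a group came from separate animals, so the p-values measure only the spread between these libraries.

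DOT1L is the enzyme that methylates lysine 79 of histone H3, a mark found along the bodies of transcribed genes. A CD8 single-positive thymocyte has just ended selection on its antigen receptor. It switches off the recombination machinery and acquires the receptors that let it leave the thymus. In the spleen, CD8 cells of the central memory phenotype carry CD44 on their surface and are known for the T-box factors T-bet and Eomes, for responsiveness to interleukin 15 and for quick production of effector molecules.

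The 8 libraries held between 7075239 and 16879636 counted reads, with a median over them of 11898403. Levels are given in CPM, the count of a gene brought to a fixed library total after scaling of the library sizes. Differences are log2 fold changes of KO memory over KO thymus with an approximate standard error (SE). The SE was worked back from the edgeR test, as the absolute log2 fold change over the square root of the F statistic. For genes with few counts it may understate the uncertainty. CPM values compare libraries for 1 gene and are not corrected for gene length. Cd3e, a chain of the T cell receptor complex, averaged 184 ± 6.57 CPM in KO memory and 271 ± 17.6 CPM in KO thymus (SD, n = 4 each), and Lck, the kinase bound to the CD8 co-receptor, 987 ± 106 and 896 ± 21.4 CPM. Cd8a averaged 5.02 ± 1.09 CPM in KO memory and 8.98 ± 1.47 CPM in KO thymus, and Cd8b1 averaged 3.38 ± 0.98 and 3.29 ± 0.62 CPM. Both co-receptor chains are known as abundant transcripts of CD8 T cells, so these low counts are given as a limit of the table and levels are not compared between genes. Cd4 had 0 counts in the 4 KO memory libraries and 6 in the 4 KO thymus libraries. By Xist, replicate 3 of each KO group came from a female and the other replicates from males.

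Dot1l itself was counted in every KO library. It stood at 43.8, 45.5, 45.4 and 48.4 CPM in KO memory and at 78.8, 77.4, 74.9 and 78.1 CPM in KO thymus. All 4 KO memory libraries lay below all 4 KO thymus libraries, and the difference was -0.76 ± 0.08 (edgeR quasi-likelihood test with Benjamini-Hochberg adjustment, adjusted p = 9.55e-11). Dot1l averaged 47.6 CPM in Het memory and 69.2 CPM in Het thymus, and 45.4 CPM in WT memory and 67.0 CPM in WT thymus. The counts run over the whole gene (chr10:80755206-80795461, plus strand, GRCm38), and the labels do not say which exons the deletion removes, so this level does not check the deletion.

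Of 10296 genes tested, 4893 differed between KO memory and KO thymus at an adjusted p under 0.05, which is 47.5% of them. In KO memory 2429 genes were higher (23.6%) and 2464 were lower (23.9%), and the median over all tested genes was 0.03. Differences beyond 1 on the log2 scale were seen for 741 higher genes (7.20%) and 836 lower genes (8.12%). The CPM values of the 2 groups did not overlap for 4596 genes (44.6%).

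**Figure D1:**
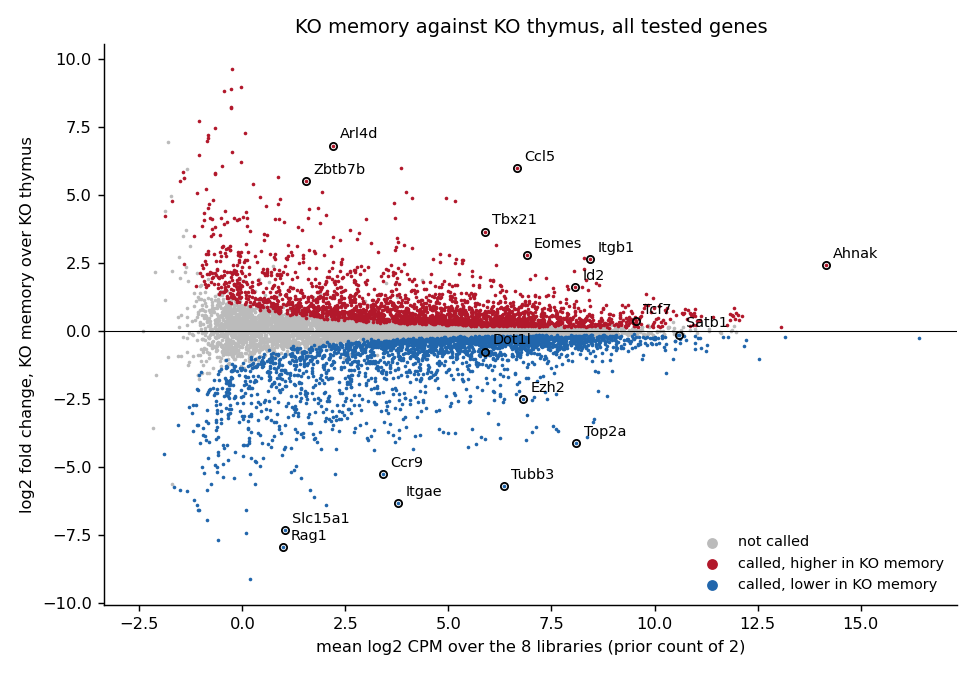
Log2 fold change of KO memory over KO thymus (vertical axis) against the mean log2 CPM of each of the 10296 tested genes (horizontal axis), with called genes in colour. Called genes lie on both sides of 0 in near equal number, 2429 above and 2464 below.

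Of called genes without overlap and with a mean log2 CPM not under 1, those with the largest increases in KO memory are described first. Lack of overlap was a condition of their choice and not a finding about them. Arl4d, a small GTPase of the ARF family (chr11:101665541-101667832, plus strand, GRCm38), was at 37.9, 36.5, 45.5 and 42.3 CPM in KO memory and at 0.275, 0.256, 0.343 and 0.478 CPM in KO thymus. Every KO memory library was far above every KO thymus library, with a difference of 6.82 ± 0.46 (adjusted p = 4.35e-13). The chemokine gene Ccl5, which memory CD8 cells are known to transcribe ahead of stimulation, reached 932, 851, 1039 and 964 CPM in KO memory, against 4.68, 24.5, 23.4 and 4.62 CPM in KO thymus. The KO thymus libraries split into a lower pair, replicates 1 and 4, and a higher pair, all below KO memory, and Ccl5 rose by 5.99 ± 0.51 (adjusted p = 1.39e-10). Gas7, a cytoskeletal adaptor, was at 118, 98.2, 129 and 157 CPM in KO memory and at 0.688, 1.19, 3.64 and 1.51 CPM in KO thymus. It rose by 6.01 ± 0.57 (adjusted p = 8.99e-10), or by 6.67 without KO thymus replicate 3, its highest thymic library. A receptor for inflammatory chemokines rose with them. Ccr2 was at 20.0, 17.6, 21.7 and 19.5 CPM in KO memory and at 0.688, 0.256, 0.618 and 0.718 CPM in KO thymus, a difference of 5.10 ± 0.54 (adjusted p = 5.95e-09). Its groups did not overlap. Others among the 12 highest were Zbtb7b (5.52), Samd3 (5.11), the kinase Lrrk1 (4.91), Plek (4.78), which encodes the protein kinase C substrate pleckstrin, H2-Q10 (4.72), the CaMKII inhibitor Camk2n1 (4.54) and the potassium channel gene Kcnj8 (4.50). H2-Q10 is a class I major histocompatibility gene with close copies, so its reads may be shared with them.

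Zbtb7b encodes ThPOK, the factor known for directing thymocytes to the CD4 lineage. It was at 17.5, 13.4, 17.5 and 24.8 CPM in KO memory and at 0, 0.427, 0.618 and 0.319 CPM in KO thymus, without overlap (5.52 ± 0.57, adjusted p = 3.14e-09). The gain was also seen in Het (4.28) and in WT (4.97), and the genotypes' differences were not called apart (adjusted p = 0.659 against Het and 0.90 against WT). Cd4 was too low to test, with 0 counts over KO memory and 6 over KO thymus. As the CD8 co-receptor chains are also low in these counts, whether Cd4 accompanied the gain cannot be read.

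The genes with the largest decreases were taken under the same conditions, lack of overlap included. Slc15a1, a peptide transporter gene (chr14:121459621-121505252, minus strand, GRCm38), was at 0, 0.0937, 0.137 and 0.141 CPM in KO memory and at 20.0, 15.4, 12.9 and 12.4 CPM in KO thymus. The groups stood far apart, by -7.33 ± 0.39 (adjusted p = 1.69e-17), on 4 counts in KO memory and 668 in KO thymus. Itgae encodes the integrin chain CD103, which binds E-cadherin on epithelium. It was at 1.25, 1.31, 1.78 and 1.41 CPM in KO memory and at 132, 99.0, 132 and 107 CPM in KO thymus, and fell by 6.34 ± 0.19 (adjusted p = 6.11e-25). Ccr9, the receptor for the thymic and gut chemokine CCL25, was at 1.01, 2.72, 1.78 and 1.27 CPM in KO memory and at 56.0, 75.5, 62.8 and 62.6 CPM in KO thymus. No library crossed between the groups for either gene, and Ccr9 fell by 5.27 ± 0.26 (adjusted p = 4.89e-16).

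Components of 3 developmental signalling pathways were also among the 12 lowest. Notch3, a Notch receptor, was at 0.238, 0.750, 0.137 and 0.282 CPM in KO memory and at 21.1, 19.4, 18.6 and 19.0 CPM in KO thymus. It fell by 5.84 ± 0.38 (adjusted p = 5.51e-15), and the difference was -6.47 without KO memory replicate 2. Smo, the signal transducer of the Hedgehog pathway, was at 0.535, 1.31, 0.547 and 0.423 CPM in KO memory and at 20.7, 28.8, 25 and 34.1 CPM in KO thymus, a difference of -5.27 ± 0.32 (adjusted p = 2.19e-15). Vangl2, a planar polarity protein of non-canonical Wnt signalling, differed by -6.13 ± 0.41 (adjusted p = 1.59e-13), and Tcf7l2, a Wnt-responsive factor, by -5.41 ± 0.35 (adjusted p = 1.75e-15). For all 4 genes every KO memory library was below every KO thymus library, as their choice required. The neuronal beta-tubulin gene Tubb3 was at 16.7, 8.72, 9.70 and 10.2 CPM in KO memory and 570, 494, 590 and 771 CPM in KO thymus (-5.71 ± 0.22, adjusted p = 8.78e-18). The others were the receptor phosphatase Ptprf (-6.41), the calcium channel subunit gene Cacng4 (-5.18), Ankrd55 (-5.14) and Fbln1 (-4.96, or -5.94 without KO memory replicate 3).

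**Figure D2:**
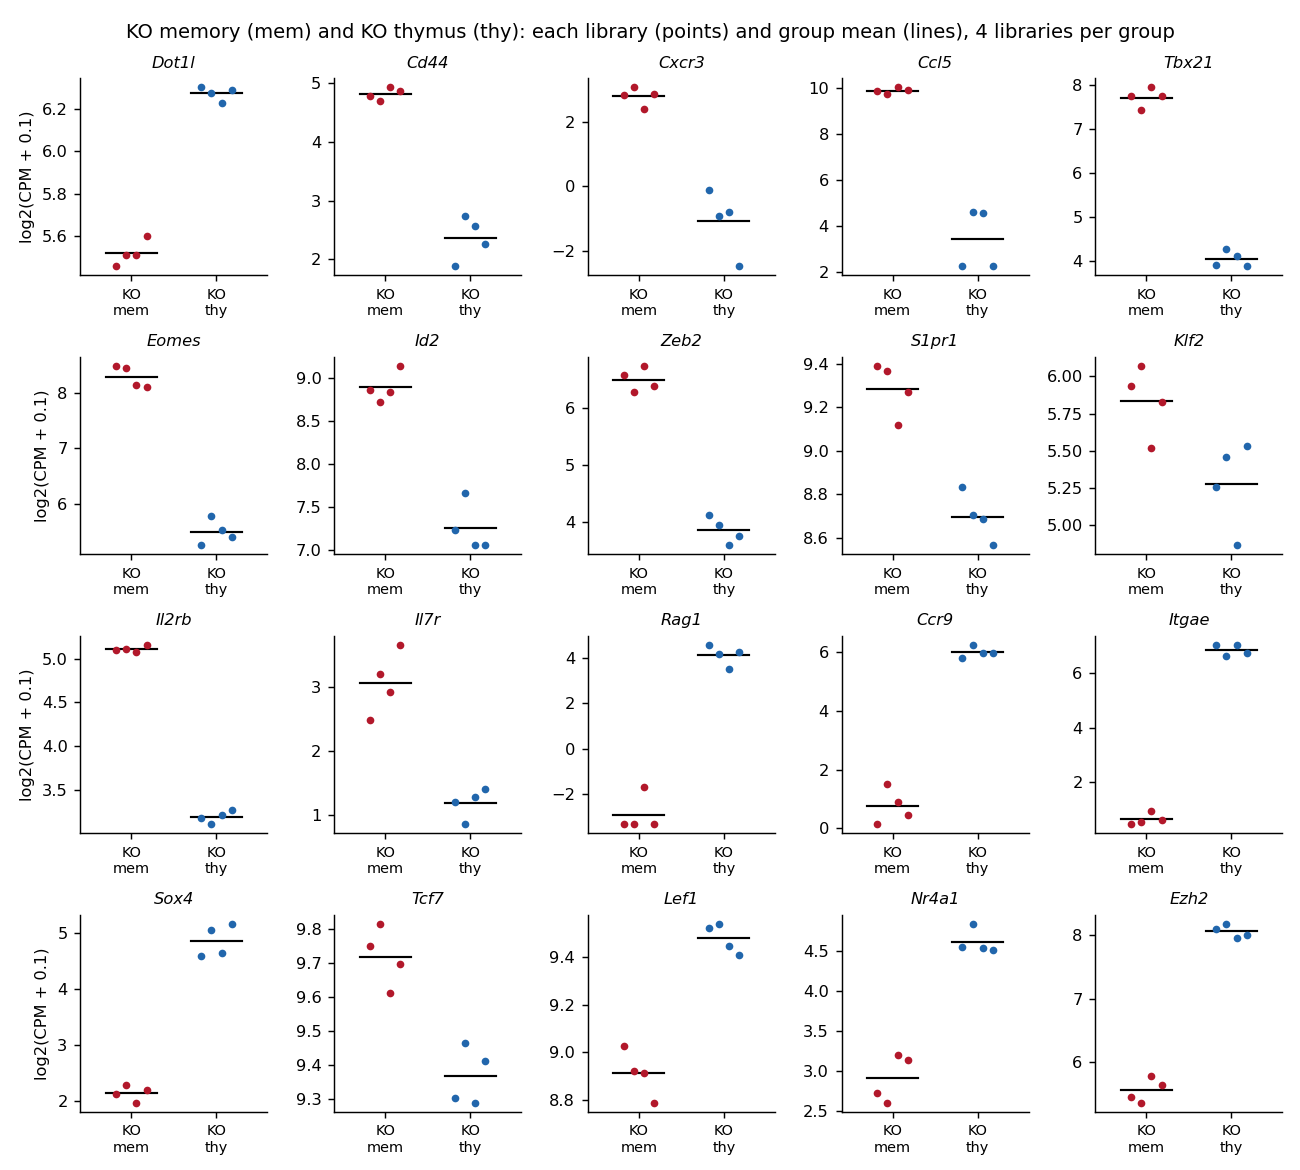
Log2(CPM + 0.1) of 20 named genes in each KO memory and each KO thymus library, with a line at the mean of each group. Each panel has its own vertical axis. Ccl5, Tbx21 and Eomes stand higher in KO memory, Rag1, Ccr9 and Itgae higher in KO thymus, and the Klf2 libraries overlap.

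Of 23 genes of thymocyte immaturity and selection, 16 could be tested, and 11 of them fell and 3 rose in KO memory, with a median of -2.98. That is 87.5% called, against 47.5% of all tested genes. This list and those below were chosen with earlier results of these data known. A share above that of all tested genes therefore describes a list and does not test it. Rag1, which cuts antigen receptor genes for recombination, was at 0, 0, 0.205 and 0 CPM in KO memory and at 23.5, 17.8, 11.3 and 19.3 CPM in KO thymus. That is 3 counts in KO memory, all in replicate 3, against 787 in KO thymus, a ratio of 0.00357 with a 95% counting interval of 0.000735 to 0.0105 (adjusted p = 3.11e-10). Its partner Rag2 was too low to test, with 0 counts in KO memory and 29 in KO thymus. Sox4, a factor of early thymocytes, was at 4.28, 4.78, 3.83 and 4.51 CPM in KO memory and at 24.0, 33.1, 24.6 and 35.5 CPM in KO thymus. Tox, which is needed for thymocytes to pass selection, was at 71.5, 68.5, 65.8 and 59.3 CPM in KO memory and at 204, 240, 220 and 224 CPM in KO thymus. Neither overlapped, with differences of -2.77 ± 0.23 (adjusted p = 9.71e-12) and -1.74 ± 0.09 (adjusted p = 1.01e-19). Plxnd1, a semaphorin receptor of thymocyte migration, fell by 3.20 ± 0.28 (adjusted p = 1.43e-12), and the chemokine receptor gene Ccr4 fell by 4.77 ± 0.42 (adjusted p = 9.02e-13). Id3, an inhibitor of E proteins induced by receptor signalling in the thymus, averaged 20.9 ± 7.21 CPM in KO memory and 93.6 ± 13.8 CPM in KO thymus (-2.14 ± 0.20, adjusted p = 6.33e-10). Itm2a, a membrane protein induced at positive selection, rose by 0.67 ± 0.14 (adjusted p = 0.000135).

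The egress and homing list, with 18 of 21 genes tested, had 13 members higher, 2 lower (1 without the filter on low counts) and a median of 0.90. Calls covered 83.3% of its tested members, against 47.5% of all tested genes. S1pr1, the receptor that draws T cells along sphingosine 1-phosphate out of the thymus, was at 670, 659, 555 and 618 CPM in KO memory and at 456, 417, 413 and 379 CPM in KO thymus. The groups did not overlap and the gain was 0.59 ± 0.08 (adjusted p = 2.26e-07). Klf2, the factor that switches on S1pr1, was at 61.0, 67.0, 45.8 and 56.7 CPM in KO memory and at 38.1, 43.9, 29.0 and 46.2 CPM in KO thymus. Klf2 rose by 0.55 ± 0.12 (adjusted p = 0.000309) although its lowest KO memory library was just below its highest KO thymus library. Cd44, a sort marker of the memory gate, was at 27.4, 26, 30.3 and 28.9 CPM in KO memory and at 3.58, 6.57, 5.83 and 4.70 CPM in KO thymus (2.41 on the log2 scale). This follows from how the memory cells were gated and is given only as a check of the labels.

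Cxcr3 and Ccr7, chemokine receptors of the periphery, moved in opposite directions. Cxcr3, which guides memory cells to inflamed tissue, was at 7.08, 8.34, 5.19 and 7.19 CPM in KO memory and at 0.826, 0.427, 0.481 and 0.0797 CPM in KO thymus. It rose by 4.01 ± 0.33 (adjusted p = 1.40e-13) with no overlap. Ccr7, the lymph node homing receptor, was at 60.8, 64.9, 51.0 and 50.7 CPM in KO memory and at 93.5, 97.7, 71.6 and 83.6 CPM in KO thymus. It fell by 0.60 ± 0.09 (adjusted p = 5.88e-07), again with no overlap. Gpr183, the receptor for oxysterols that positions cells in the spleen, rose by 3.42 ± 0.16 (adjusted p = 8.82e-21), Klf3 by 1.54 ± 0.13 (adjusted p = 2.52e-13) and Cxcr4 by 1.30 ± 0.14 (adjusted p = 1.28e-09). S1pr5, the egress receptor of effector and natural killer cells, was not tested, with 43 counts in KO memory and 0 in KO thymus.

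Of 22 transcription factors of effector and memory cells, 20 were tested. Of these 15 rose and 3 fell, with a median of 0.88, and 90% were called, against 47.5% of all tested genes. Tbx21, which encodes T-bet, was at 214, 172, 246 and 213 CPM in KO memory and at 15.1, 19.4, 17.4 and 14.8 CPM in KO thymus. Eomes, the related T-box factor of central memory, was at 356, 348, 282 and 275 CPM in KO memory and at 38.3, 54.9, 46.4 and 42.2 CPM in KO thymus. Both stood apart in all 8 libraries, with gains of 3.66 ± 0.26 (adjusted p = 3.33e-12) and 2.79 ± 0.17 (adjusted p = 5.45e-14). Prdm1, which encodes the effector factor Blimp-1, averaged 26.6 ± 2.32 CPM in KO memory and 3.50 ± 0.89 CPM in KO thymus (2.92 ± 0.26, adjusted p = 1.53e-11). Zeb2, an effector factor downstream of T-bet, was at 96.2, 78.2, 107 and 83.5 CPM in KO memory and at 17.3, 15.3, 12 and 13.4 CPM in KO thymus (2.67 ± 0.36, adjusted p = 4.36e-07). Hopx rose by 3.45 ± 0.25 (adjusted p = 2.69e-15) and Stat4, the signal transducer of interleukin 12, by 2.19 ± 0.11 (adjusted p = 1.76e-20). Id2, an inhibitor of E proteins that supports effector cells, was at 465, 422, 455 and 562 CPM in KO memory and at 150, 202, 133 and 133 CPM in KO thymus. Its groups did not overlap, with a gain of 1.62 ± 0.17 (adjusted p = 4.91e-09). Bhlhe40 was at 58.5, 43.9, 59.5 and 54.7 CPM in KO memory and at 25.3, 27.7, 20.9 and 21.0 CPM in KO thymus, a gain of 1.2. Bcl6, a factor of long-lived memory cells, rose by 0.39 ± 0.13 (adjusted p = 0.0116), and that call was lost without KO memory replicate 1 (0.24, adjusted p = 0.141) or without KO thymus replicate 4 (0.33, adjusted p = 0.0582). Ikzf2, which encodes Helios, was at 219, 279, 243 and 196 CPM in KO memory and at 643, 710, 673 and 644 CPM in KO thymus and fell by 1.51 ± 0.22 (adjusted p = 1.59e-06).

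The naive and quiescence factors were mixed. Of 21 genes 20 were tested, of which 10 rose and 5 fell, with a median of 0.23. That is 75% called, against 47.5% of all tested genes. Tcf7, which encodes TCF1, a factor that naive and memory cells share, was at 861, 900, 782 and 830 CPM in KO memory and at 631, 707, 625 and 681 CPM in KO thymus, a gain of 0.35. Lef1, its close relative, was at 522, 485, 482 and 442 CPM in KO memory and at 735, 744, 698 and 679 CPM in KO thymus, a decrease of 0.56 on the log2 scale. The related factors thus moved in opposite directions, both without overlap. Myb rose by 1.45 ± 0.19 (adjusted p = 3.14e-07) and Tob1, a brake on proliferation, by 1.67 ± 0.12 (adjusted p = 7.17e-15). Igfbp4, a marker of recent thymic emigrants and naive cells, was at 1.84, 1.59, 1.37 and 3.38 CPM in KO memory and at 38.6, 43.0, 30.0 and 47.4 CPM in KO thymus (-4.38 ± 0.29, adjusted p = 2.75e-13). Satb1, a chromatin organizer, differed by -0.14 (adjusted p = 0.0349), a call that was lost without KO memory replicate 2 (-0.14, adjusted p = 0.0502) or 4 (-0.11, adjusted p = 0.131).

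Most genes of cytotoxicity were too low to test, 11 of 23 being tested. Of those, 8 rose and none fell, with a median of 1.62, and 72.7% were called, against 47.5% of all tested genes. Fasl, the death receptor ligand, was at 8.03, 5.62, 6.56 and 9.59 CPM in KO memory and at 0.138, 0.341, 0.412 and 0.159 CPM in KO thymus (4.67 ± 0.51, adjusted p = 1.30e-09). Prf1, which encodes perforin, was at 0.952, 0.750, 0.820 and 0.987 CPM in KO memory and at 0, 0.341, 0.275 and 0.159 CPM in KO thymus (1.97 ± 0.54, adjusted p = 0.00230). Both were higher in every KO memory library, Prf1 at a low level. The granule protein gene Nkg7 rose by 1.44 ± 0.21 (adjusted p = 1.39e-07). The granzyme genes Gzma, Gzmb and Gzmk had few counts, with 0 in KO memory and 4 in KO thymus for Gzma, 1 and 0 for Gzmb, and 4 and 0 for Gzmk. Gzmm had 36 counts in KO memory and 1 in KO thymus and was not tested. Ifng had 1 count in KO memory and 0 in KO thymus. As the CD8 co-receptor chains are also low in these counts, low counts here do not show that a transcript was absent. Of the natural killer receptor genes 6 of 22 were tested, of which 5 rose and none fell (83.3% called). Without the filter on low counts 9 of 17 rose. Klrk1, which encodes NKG2D, was at 3.15, 2.62, 2.05 and 6.34 CPM in KO memory and at 0.413, 0, 0.206 and 0.0797 CPM in KO thymus (4.37 ± 0.54, adjusted p = 5.73e-09). Sh2d1a, the adaptor of the SLAM receptors, was at 30.7, 38.3, 37.4 and 34.7 CPM in KO memory and at 5.51, 5.89, 6.32 and 7.73 CPM in KO thymus (2.46 ± 0.16, adjusted p = 3.43e-16).

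Of 26 cytokine receptor genes 19 were tested, with 8 higher, 4 lower and a median of -0.01. That is 63.2% called, against 47.5% of all tested genes. Without the filter on low counts the median over all 26 was 0.53. Il2rb, the chain shared by the receptors of interleukins 2 and 15, was at 34.1, 34.4, 33.7 and 35.5 CPM in KO memory and at 8.95, 8.54, 9.20 and 9.57 CPM in KO thymus. The libraries of each group were close to each other and the groups well apart (1.92 ± 0.17, adjusted p = 6.04e-12). Both chains of the interleukin 18 receptor rose, Il18rap by 5.66 ± 0.42 (adjusted p = 1.34e-14) and Il18r1 by 3.57 ± 0.36 (adjusted p = 4.48e-11). Il7r, the receptor of the survival cytokine interleukin 7, was at 5.47, 9.09, 7.52 and 12.5 CPM in KO memory and at 2.20, 1.71, 2.33 and 2.55 CPM in KO thymus (1.93 ± 0.29, adjusted p = 6.14e-07). Tgfbr1, a chain of the TGF-beta receptor, fell by 0.74 ± 0.08 (adjusted p = 7.17e-10).

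All 35 genes of T cell receptor signalling were tested, and 13 rose and 7 fell, with a median of 0.14. The share called was 57.1%, against 47.5% of all tested genes, of which 23.6% were higher and 23.9% lower. The decreases included both scavenger-type brakes on the receptor. Cd6 was at 27.8, 23.9, 33.0 and 32.7 CPM in KO memory and at 64.3, 70.2, 63.2 and 79.4 CPM in KO thymus (-1.24 ± 0.10, adjusted p = 2.54e-13). Cd5, whose level is known to follow the strength of self-recognition, was at 3.57, 4.78, 3.28 and 3.81 CPM in KO memory and at 8.40, 8.79, 6.80 and 7.89 CPM in KO thymus (-1.05 ± 0.15, adjusted p = 1.24e-07). Both were lower in every KO memory library. The kinase gene Txk rose by 1.69 ± 0.12 (adjusted p = 1.98e-15) and the co-stimulatory receptor gene Cd28 by 1.60 ± 0.38 (adjusted p = 0.000559). Of the 22 immediate early genes 7 rose and 7 fell (63.6% called), with a median of 0.32, or 0.04 without KO memory replicate 1. Those that fell included factors induced by receptor signalling in the thymus. Nr4a1, which encodes Nur77, was at 6.54, 6.00, 9.09 and 8.74 CPM in KO memory and at 23.3, 28.5, 23.1 and 22.8 CPM in KO thymus (-1.69 ± 0.17, adjusted p = 1.07e-10). Egr2 was at 17.2, 12.5, 12.7 and 8.04 CPM in KO memory and at 90.2, 96.3, 75.5 and 88.3 CPM in KO thymus (-2.75 ± 0.24, adjusted p = 1.99e-10). The AP-1 gene Junb rose by 0.94 on the log2 scale, so the list did not move one way.

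The cell cycle lists were the only theme lists of 24 in which every tested member was called in 1 direction. All 35 tested DNA replication genes, of 39 listed, were lower in KO memory, with a median of -1.57, and so were all 34 tested mitosis genes, of 37 listed, with a median of -3.33. Of all tested genes 23.9% were called lower. Summed over the list, mitosis genes stood at 340 to 543 CPM in KO memory and at 2487 to 3069 CPM in KO thymus, and replication genes at 1033 to 1141 CPM and 2595 to 3125 CPM. In bulk RNA, fewer dividing cells and less of these transcripts in each cell cannot be told apart. Among replication genes, the helicase subunit Mcm3 was at 106, 93.8, 79.8 and 73.3 CPM in KO memory and at 299, 309, 253 and 254 CPM in KO thymus (-1.65 ± 0.11, adjusted p = 1.55e-14). The subunit Mcm6 was at 126, 121, 110 and 111 CPM in KO memory and at 277, 263, 228 and 236 CPM in KO thymus (-1.10 ± 0.08, adjusted p = 1.99e-15). Neither overlapped. Among mitosis genes, Top2a, which untangles sister chromosomes, was at 38.6, 40.2, 120 and 79.6 CPM in KO memory and at 1270, 1316, 1062 and 1233 CPM in KO thymus (-4.13 ± 0.40, adjusted p = 1.75e-09). Cdc20, the activator of the complex that starts chromosome separation, was at 3.93, 5.81, 6.70 and 7.05 CPM in KO memory and at 23.0, 29.3, 22.7 and 27.7 CPM in KO thymus (-2.15 ± 0.19, adjusted p = 1.03e-12). The mitotic kinase gene Plk1 fell by 3.15 and Cdk1 by 4.99 on the log2 scale. Cdk1 had 8 counts in KO memory, and its difference was -5.83 without KO memory replicate 3. KO memory replicates 3 and 4 held more of Top2a than replicates 1 and 2, and all 4 stayed below KO thymus.

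Replication genes are known as targets of E2F factors, and mitosis genes of complexes that bind the cell cycle homology region (CHR), often near CCAAT boxes bound by NF-Y. Promoters were taken as the 250 bases before to the 50 bases after the start site in RefSeq (GRCm38.p6) and searched on both strands. The E2F letters TTTGGCGC or TTTCCCGC were found in 11 of the 28 replication promoters that the table holds (39.3%), against 3.47% of the 7806 promoters of tested genes and 1.63% of all 27025 promoters. The CHR letters TTTGAA were found in 24 of 28 mitosis promoters (85.7%), against 11.5% of tested and 18.1% of all promoters. Both CHR and CCAAT letters were found in 20 of 28 mitosis promoters (71.4%), against 4.93% of tested and 7.12% of all promoters. Over all genes called lower, 6.46% of promoters held the E2F letters and 14.6% the CHR letters, against 1.84% and 9.95% over genes called higher. A match describes letters in a window and is not a measured site. To show these elements in genes just described, the promoter sequences of 2 replication genes follow with the E2F letters in capitals, Mcm3 (chr1:20820263-20820562, minus strand) and Mcm6 (chr1:128359656-128359955, minus strand), and those of 2 mitosis genes with the CHR and CCAAT letters of either strand in capitals, Cdc20 (chr4:118437294-118437593, minus strand) and Plk1 (chr7:122159185-122159484, plus strand), all GRCm38.p6 and written 5′ to 3′ in the direction of transcription.
Mcm3: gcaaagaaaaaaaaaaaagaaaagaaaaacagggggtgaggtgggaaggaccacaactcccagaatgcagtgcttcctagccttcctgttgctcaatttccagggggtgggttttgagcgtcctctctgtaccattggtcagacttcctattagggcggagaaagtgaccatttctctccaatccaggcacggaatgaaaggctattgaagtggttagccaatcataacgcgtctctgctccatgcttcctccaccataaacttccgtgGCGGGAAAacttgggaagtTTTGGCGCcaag
Mcm6: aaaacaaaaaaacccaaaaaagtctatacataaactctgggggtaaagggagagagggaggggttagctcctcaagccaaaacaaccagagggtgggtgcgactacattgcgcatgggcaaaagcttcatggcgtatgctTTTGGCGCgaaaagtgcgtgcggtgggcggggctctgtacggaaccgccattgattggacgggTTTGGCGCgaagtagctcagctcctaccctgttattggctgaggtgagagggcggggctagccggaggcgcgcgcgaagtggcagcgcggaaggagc
Cdc20: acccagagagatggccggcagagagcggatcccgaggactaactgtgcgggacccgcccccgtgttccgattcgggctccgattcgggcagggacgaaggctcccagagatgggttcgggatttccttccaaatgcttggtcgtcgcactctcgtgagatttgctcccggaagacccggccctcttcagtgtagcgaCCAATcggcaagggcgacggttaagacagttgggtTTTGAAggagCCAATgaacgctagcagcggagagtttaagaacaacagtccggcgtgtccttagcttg
Plk1: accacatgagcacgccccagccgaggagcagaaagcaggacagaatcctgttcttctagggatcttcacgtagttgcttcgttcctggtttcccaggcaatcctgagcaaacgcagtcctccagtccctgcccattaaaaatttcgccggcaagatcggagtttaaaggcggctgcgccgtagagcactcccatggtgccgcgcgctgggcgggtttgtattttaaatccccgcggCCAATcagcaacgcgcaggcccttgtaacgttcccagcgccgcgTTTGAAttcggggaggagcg
In Mcm3 both matches lie after the start site, in Mcm6 both lie before it, and in Cdc20 the CHR lies between 2 CCAAT boxes just before it.

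**Figure D3:**
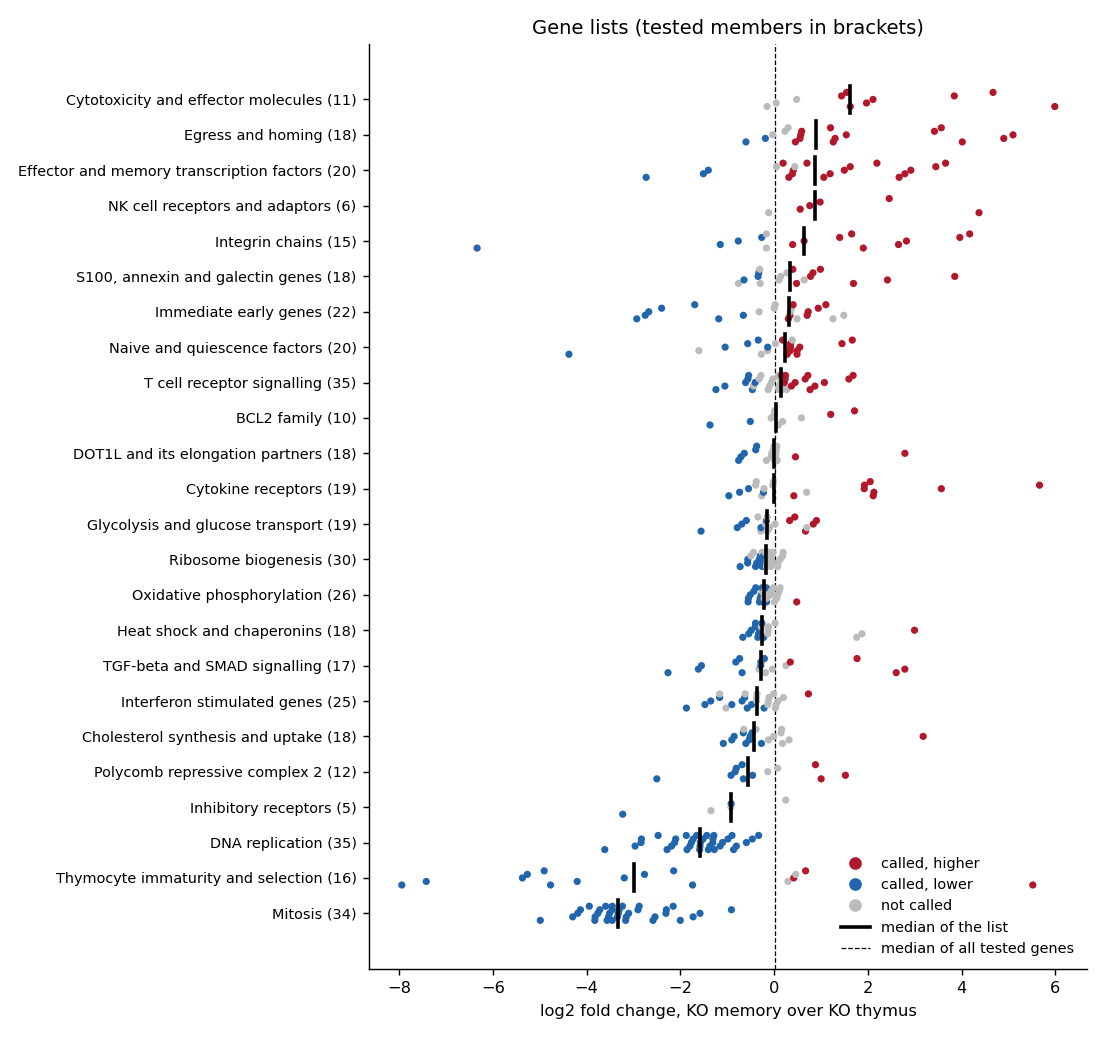
Log2 fold change of KO memory over KO thymus for every tested member of the 24 theme lists (points, coloured where called), with each list's median as a bar and the median of all tested genes as a dashed line. Mitosis, thymocyte immaturity and DNA replication lie lowest, with medians of -3.33, -2.98 and -1.57.

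Of 17 integrin chains 15 were tested, with 9 higher, 4 lower and a median of 0.64. That is 86.7% called, against 47.5% of all tested genes. Itgb1, the beta chain shared by the very late antigen integrins, was at 919, 793, 891 and 899 CPM in KO memory and at 130, 139, 162 and 125 CPM in KO thymus (2.65 ± 0.22, adjusted p = 8.41e-11). The collagen-binding alpha chain gene Itga2 was at 16.8, 7.69, 15.8 and 13.8 CPM in KO memory and at 1.38, 0.512, 0.618 and 1.12 CPM in KO thymus (3.96 ± 0.44, adjusted p = 3.74e-09). Itgb3 was at 65.8, 71.1, 68.2 and 74.1 CPM in KO memory and at 20.1, 27.4, 29.9 and 27.5 CPM in KO thymus (1.40 ± 0.14, adjusted p = 3.33e-11). These rose without overlap, and Itgae, described above, fell. Of 18 tested S100, annexin and galectin genes 8 rose and 3 fell (61.1% called), with a median of 0.34. The median ran between 0.23 and 0.48 as single KO libraries were left out. On the 8 KO libraries alone 6 fell. Ahnak, a giant scaffold protein that binds S100a10 and annexin 2, was at 40948, 38926, 42455 and 48448 CPM in KO memory and at 9098, 6464, 8615 and 7773 CPM in KO thymus (2.42 ± 0.15, adjusted p = 1.89e-13).

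In the lists of growth, metabolism, stress and survival, the share of tested genes called was 36.7% for ribosome biogenesis, 40% for the BCL2 family and for inhibitory receptors, 44% for interferon stimulated genes and 50% for oxidative phosphorylation. These lie near or below the 47.5% of all tested genes, and the shares are not read as results about the lists. By direction, 23.6% of all tested genes were called higher and 23.9% lower. The calls in the ribosome biogenesis, oxidative phosphorylation and interferon lists were all or nearly all decreases. The share was 55.6% for cholesterol synthesis, 57.9% for glycolysis and 61.1% for heat shock. Of 30 ribosome biogenesis genes 11 fell and none rose (median -0.18), and of 26 tested oxidative phosphorylation genes 12 fell and 1 rose (median -0.21). Without the filter on low counts these decreases were called for 7 and 6 genes. Without KO memory replicate 4 the oxidative phosphorylation decreases numbered 7, and without KO thymus replicate 3 none of its genes rose. Glycolysis had 5 higher and 6 lower of 19 tested (median -0.15), and cholesterol synthesis 1 higher and 9 lower of 18 (median -0.43). Hk2, a hexokinase of activated cells, was at 4.88, 5.44, 6.70 and 7.05 CPM in KO memory and at 15.4, 16.5, 17.0 and 21.1 CPM in KO thymus (-1.56 ± 0.16, adjusted p = 5.55e-11). Heat shock and chaperonin genes had 1 higher and 10 lower of 18 (median -0.27). The one that rose was the co-chaperone gene Bag3, at 35.8, 25.4, 50.3 and 44.0 CPM in KO memory and 2.75, 2.99, 6.66 and 6.30 CPM in KO thymus (3.0 ± 0.30, adjusted p = 1.94e-09). Interferon stimulated genes had 1 higher and 10 lower of 25 tested (median -0.38). Ifit1, which binds viral RNA, was at 11.2, 9.28, 11.9 and 3.38 CPM in KO memory and at 30.7, 37.0, 36.7 and 32.5 CPM in KO thymus (-1.87 ± 0.28, adjusted p = 2.97e-06). In the BCL2 family 2 of 10 tested genes rose and 2 fell (median 0.05), the risers being the death-promoting genes Bcl2l11 (1.21 ± 0.15, adjusted p = 4.59e-09) and Bbc3 (1.72 ± 0.23, adjusted p = 5.73e-08). Its decreases numbered 0 without KO memory replicate 2 and 1 without KO memory replicate 1 or KO thymus replicate 1 or 4. Of the 5 tested inhibitory receptor genes none rose and 2 fell (median -0.92), or 1 without KO memory replicate 1 or KO thymus replicate 3.

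Of 13 genes of Polycomb repressive complex 2, 12 were tested, with 3 higher, 7 lower and a median of -0.56, so that 83.3% were called. Ezh2, the histone H3 lysine 27 methyltransferase of dividing cells, was at 43.6, 41.0, 54.7 and 49.8 CPM in KO memory and at 275, 290, 249 and 257 CPM in KO thymus (-2.50 ± 0.12, adjusted p = 9.75e-19). Its counterpart of resting cells, Ezh1, was at 92.8, 87.4, 92.6 and 86.8 CPM in KO memory and at 46.3, 49.0, 57.6 and 42.1 CPM in KO thymus (0.88 ± 0.09, adjusted p = 1.22e-11). The pair moved in opposite directions without overlap, and the accessory subunit gene Phf1 rose by 1.52 ± 0.08 (adjusted p = 1.24e-18). Of the 18 genes for DOT1L and its elongation partners 2 rose and 5 fell, Dot1l among the decreases, with a median of -0.01, and the 38.9% called lie below the 47.5% of all tested genes. Of the genes that rose 1 was left without KO memory replicate 4 or KO thymus replicate 2. The elongation factor gene Ell2 was at 6.07, 5.44, 5.40 and 5.22 CPM in KO memory and at 0.413, 0.768, 0.824 and 1.04 CPM in KO thymus (2.79 ± 0.36, adjusted p = 1.28e-08). In the TGF-beta list 4 of 17 tested genes rose and 9 fell (median -0.28, 76.5% called). Acvr2a, an activin receptor gene, was at 94.4, 84.5, 111 and 112 CPM in KO memory and at 14.9, 15.0, 18.8 and 16.8 CPM in KO thymus (2.61 ± 0.18, adjusted p = 6.15e-14).

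Some markers of other cells differed between the groups, and their part in the results was not tested. The summed ranges of B cell, erythroid and thymic stroma markers overlapped. For scale, 23.6% of all tested genes were called higher and 23.9% lower. B cell markers summed to 15.5 to 76.9 CPM in KO memory and 15.8 to 26.3 CPM in KO thymus, with 3 of 10 tested genes higher and none lower, or 5 higher on the 8 KO libraries alone. Pax5, the B cell factor, had 284 counts in KO memory and 0 in KO thymus, at least 88.7-fold higher against a floor of 3 counts over the group, while Ms4a1 had 7 and 5 counts. Myeloid and dendritic markers summed to 20.9 to 34.6 CPM in KO memory and 4.18 to 5.26 CPM in KO thymus, with 2 of 4 tested genes higher. Lyz2 had 6 and 3 counts, and S100a8, S100a9 and Csf3r had 0 in both groups. Erythroid markers summed to 4.51 to 51.6 CPM in KO memory and 1.99 to 6.05 CPM in KO thymus. Of 5 tested genes 4, all globins, were higher, but 2 without KO memory replicate 1 and 0 on the 8 KO libraries alone. Hbb-bs, a globin with close copies, had 500 counts in KO memory and 0 in KO thymus, at least 156-fold higher against the same floor, and that call was lost without KO memory replicate 1 (adjusted p = 0.0538). CD4 T cell markers summed to 16.5 to 26.3 CPM in KO memory and 6.40 to 8.57 CPM in KO thymus, with Zbtb7b higher of 4 tested genes and Ctla4 (-0.92), Foxp3 (-2.25) and Izumo1r (-3.15) lower, and Cd40lg had 0 counts in both. The Ctla4 call was lost without KO memory replicate 1 or 4 or KO thymus replicate 3 (adjusted p of 0.121, 0.0683 and 0.0825). Innate-like and gamma delta markers summed to 0.832 to 2.25 CPM in KO memory and 5.78 to 15.4 CPM in KO thymus, with 3 of 5 tested genes lower and none higher, or 1 higher with a replicate block or on the 8 KO libraries alone. Zbtb16, which encodes the innate-like factor PLZF, was at 0.535, 0.281, 0.820 and 0.141 CPM in KO memory and at 3.17, 8.19, 10.4 and 5.42 CPM in KO thymus (-3.78 ± 0.47, adjusted p = 2.70e-08), while Trdc, Il23r and Il17a had 0 counts in both. Thymic stroma markers summed to 3.80 to 7.19 CPM in KO memory and 5.01 to 8.10 CPM in KO thymus, with neither of the 2 tested genes called and Krt5, Psmb11 and Foxn1 at 0.

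The memory-thymus difference was also taken in WT and in Het, from libraries that KO does not share. WT memory differed from WT thymus at 4078 genes (39.6%) and Het memory from Het thymus at 4608 genes (44.8%). Of the KO calls, 3030 were called in the same direction in WT, which is 61.9% of the KO calls and 74.3% of the WT calls, and 67 were called in the opposite direction. With Het the same direction held for 3354 genes, 68.5% of the KO calls and 72.8% of the Het calls. Across all tested genes the log2 fold changes of KO and WT had a Pearson correlation of 0.807, which is over genes and not over independent replicates.

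The size of the difference depended on genotype at 954 genes by the test of the difference itself, KO minus WT (9.27% of those tested). Of these 425 were higher in KO (4.13%) and 529 lower (5.14%). Against Het it was 858 genes (8.33%), 374 higher (3.63%) and 484 lower (4.70%). Both tests use the same KO libraries, so the values against Het are given beside those against WT and are not a second test. The 954 genes fell into several classes. Opposite signs in KO and WT were seen for 165 genes higher in memory in KO but lower in WT and for 196 genes with the reverse. The change had 1 sign and was larger in KO for 104 genes higher and 171 genes lower in memory, and it was smaller in KO for 162 genes higher and 156 genes lower in memory.

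**Figure D4:**
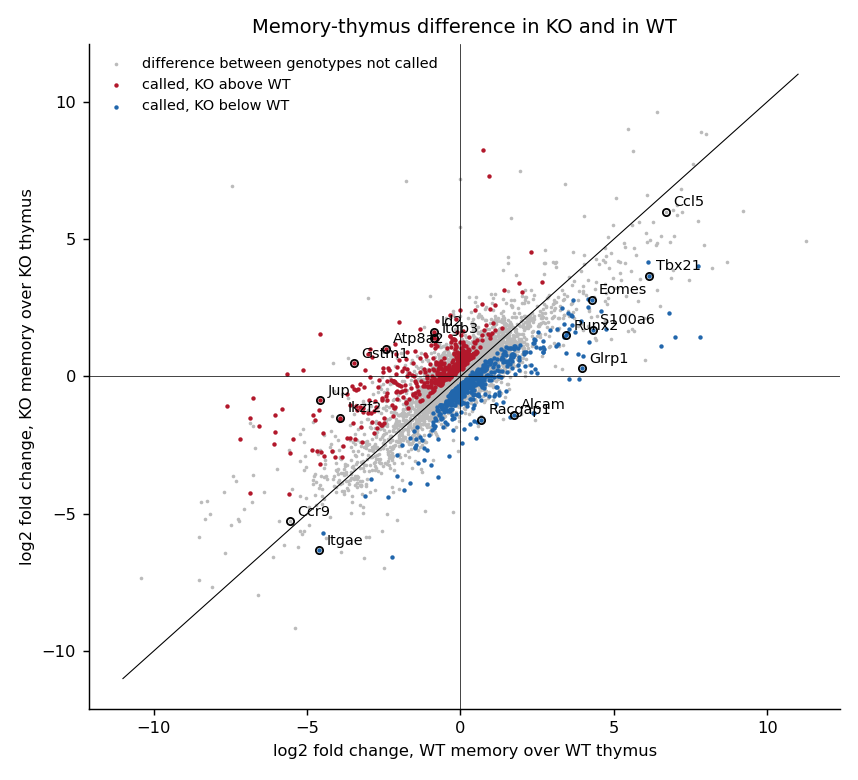
Log2 fold change of KO memory over KO thymus (vertical axis) against that of WT memory over WT thymus (horizontal axis) for 10296 genes, coloured where the 2 differ by the test of the difference, with the line of equal change. Id2 and Itgb3 lie in the quadrant that is positive in KO and negative in WT, Racgap1 in the opposite one.

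Id2 went in opposite directions in KO and in the other genotypes (chr12:25093799-25097140, minus strand, GRCm38). It averaged 476 ± 60.0 CPM in KO memory and 154 ± 32.7 CPM in KO thymus (SD, n = 4 each), but 102 CPM in Het memory and 202 CPM in Het thymus, and 98.1 CPM in WT memory and 180 CPM in WT thymus. The KO gain of 1.62 met a WT change of -0.87, a genotype difference of 2.49 ± 0.25 (adjusted p = 6.24e-08) and of 2.60 ± 0.24 against Het (adjusted p = 2.08e-08). The integrin gene Itgb3 did the same, with 69.8 ± 3.60 and 26.2 ± 4.25 CPM in KO memory and KO thymus and 18 and 32.2 CPM in WT memory and WT thymus. Its genotype difference was 2.25 ± 0.20 against WT (adjusted p = 1.87e-10) and 2.11 ± 0.20 against Het (adjusted p = 5.83e-10). Bcl6 averaged 36.6 CPM in KO memory and 28.1 CPM in KO thymus, against 21.7 and 35.3 CPM in the WT subsets, a genotype difference of 1.08 ± 0.19 (adjusted p = 0.000114). Bhlhe40 differed by 1.36 from WT (adjusted p = 0.00271) and by 0.80 from Het, where it was not called (adjusted p = 0.0641).

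Of the 20 tested effector and memory factors, 7 had a higher KO minus WT difference and 4 a lower one (median 0.06). Over all tested genes 4.13% were called higher and 5.14% lower. Id2, Bcl6 and Bhlhe40 were among the 7 higher factors and the 3 factors that follow among the 4 lower ones. Tbx21 rose by 3.66 in KO and by 6.14 in WT, a difference of -2.49 ± 0.46 (adjusted p = 0.000580), with 211 CPM in KO memory and 16.7 CPM in KO thymus, and 164 CPM in WT memory and 2.48 CPM in WT thymus. Eomes rose by 2.79 in KO and 4.28 in WT (-1.49 ± 0.26, adjusted p = 0.000294), with 315 and 45.4 CPM in KO memory and KO thymus and 181 and 9.61 CPM in the WT subsets. Runx2 rose by 1.5 in KO and 3.44 in WT (-1.94 ± 0.28, adjusted p = 3.34e-05), with 565 and 200 CPM in KO memory and KO thymus and 588 and 54.3 CPM in the WT subsets. For these 3 genes the memory level was close to or above that of WT, and the KO thymus level was several times that of WT thymus. S100a6, a calcium-binding protein of memory cells, showed the same layout, with 97.4 and 30.0 CPM in KO memory and KO thymus and 40.4 and 1.81 CPM in the WT subsets (-2.63 ± 0.53, adjusted p = 0.00143). Cxcr3 did as well (-3.71 ± 0.92, adjusted p = 0.00557), on KO thymus and WT thymus means of 0.453 and 0.0194 CPM, and its difference was -5.43 without WT thymus replicate 2. The WT thymus group has 3 libraries.

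Ikzf2 and Sox4 fell less in KO than in WT, with different levels behind it. Ikzf2 fell by 1.51 in KO and 3.93 in WT, a difference of 2.42 ± 0.32 (adjusted p = 7.91e-06), with 234 CPM in KO memory and 44.7 CPM in WT memory, and 668 CPM in KO thymus and 681 CPM in WT thymus. Sox4 fell by 2.77 in KO and 4.53 in WT (1.76 ± 0.35, adjusted p = 0.000760), with 4.35 and 29.3 CPM in KO memory and KO thymus and 2.99 and 71.6 CPM in the WT subsets. The junction gene Jup, which encodes plakoglobin, was at 16.3 ± 2.1 and 29.7 ± 5.2 CPM in KO memory and KO thymus, 0.492 and 22.7 CPM in the Het subsets and 1.04 and 25.5 CPM in the WT subsets. Its difference was 3.71 ± 0.28 against WT (adjusted p = 5.59e-13) and 4.65 ± 0.33 against Het (adjusted p = 6.98e-14, or 5.25 without Het memory replicate 4). Nav2 and the death-associated kinase gene Dapk1 had the same order of levels, with differences of 3.20 ± 0.33 and 3.07 ± 0.34 against WT (adjusted p = 2.21e-08 for each). Atp8a2, a phospholipid flippase gene, went in opposite directions, at 57.1 and 28.4 CPM in KO memory and KO thymus, 5.18 and 18.5 CPM in the Het subsets and 2.87 and 15.6 CPM in the WT subsets (3.43 ± 0.18 against WT, adjusted p = 6.77e-18). Of the called KO minus WT differences at a mean log2 CPM not under 1, that of Gstm1 was the highest, 3.97 or 6.29 without WT memory replicate 1, a gene with close copies.

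Genes with a negative KO minus WT difference included a division gene. Racgap1, a regulator of cytokinesis (chr15:99620496-99651656, minus strand, GRCm38), averaged 14.6 ± 2.42 CPM in KO memory and 43.9 ± 4.21 CPM in KO thymus, 50.7 and 36.6 CPM in the Het subsets and 49.2 and 30.8 CPM in the WT subsets. It fell by 1.58 in KO and rose by 0.67 in WT, a difference of -2.25 ± 0.16 (adjusted p = 6.28e-14). Of the 34 mitosis genes 5 differed from WT, all more negative in KO, and 3 differed from Het. Over all tested genes 5.14% were called lower against WT and 4.70% against Het. The Smc2 call against WT was lost without WT thymus replicate 1 (adjusted p = 0.0915) or WT memory replicate 3 (adjusted p = 0.0628). Ncapd2 gained a call without WT thymus replicate 2 (adjusted p = 0.00977). Atxn1 rose by 0.84 in KO and by 3.42 in WT (-2.58 ± 0.18, adjusted p = 6.28e-14), with thymic means of 24.2 CPM in KO thymus and 4.96 CPM in WT thymus. The adhesion molecule gene Alcam fell by 1.40 in KO and rose by 1.74 in WT (-3.13 ± 0.51, adjusted p = 5.21e-05). Glrp1 was not called in KO (0.29, adjusted p = 0.609) and rose by 3.95 in WT (-3.66 ± 0.84, adjusted p = 0.00470), with 6.07 and 4.75 CPM in KO memory and KO thymus and 6.17 and 0.377 CPM in the WT subsets. Itgae fell by 6.34 in KO and by 4.60 in WT, a difference of -1.74. Cd6 and Cd5 were also more negative in KO, by -0.90 ± 0.15 (adjusted p = 4.20e-05) and -0.85 ± 0.20 (adjusted p = 0.00412), with Cd5 at 3.86 and 7.97 CPM in KO memory and KO thymus and 13.4 and 15.6 CPM in the WT subsets.

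**Figure D5:**
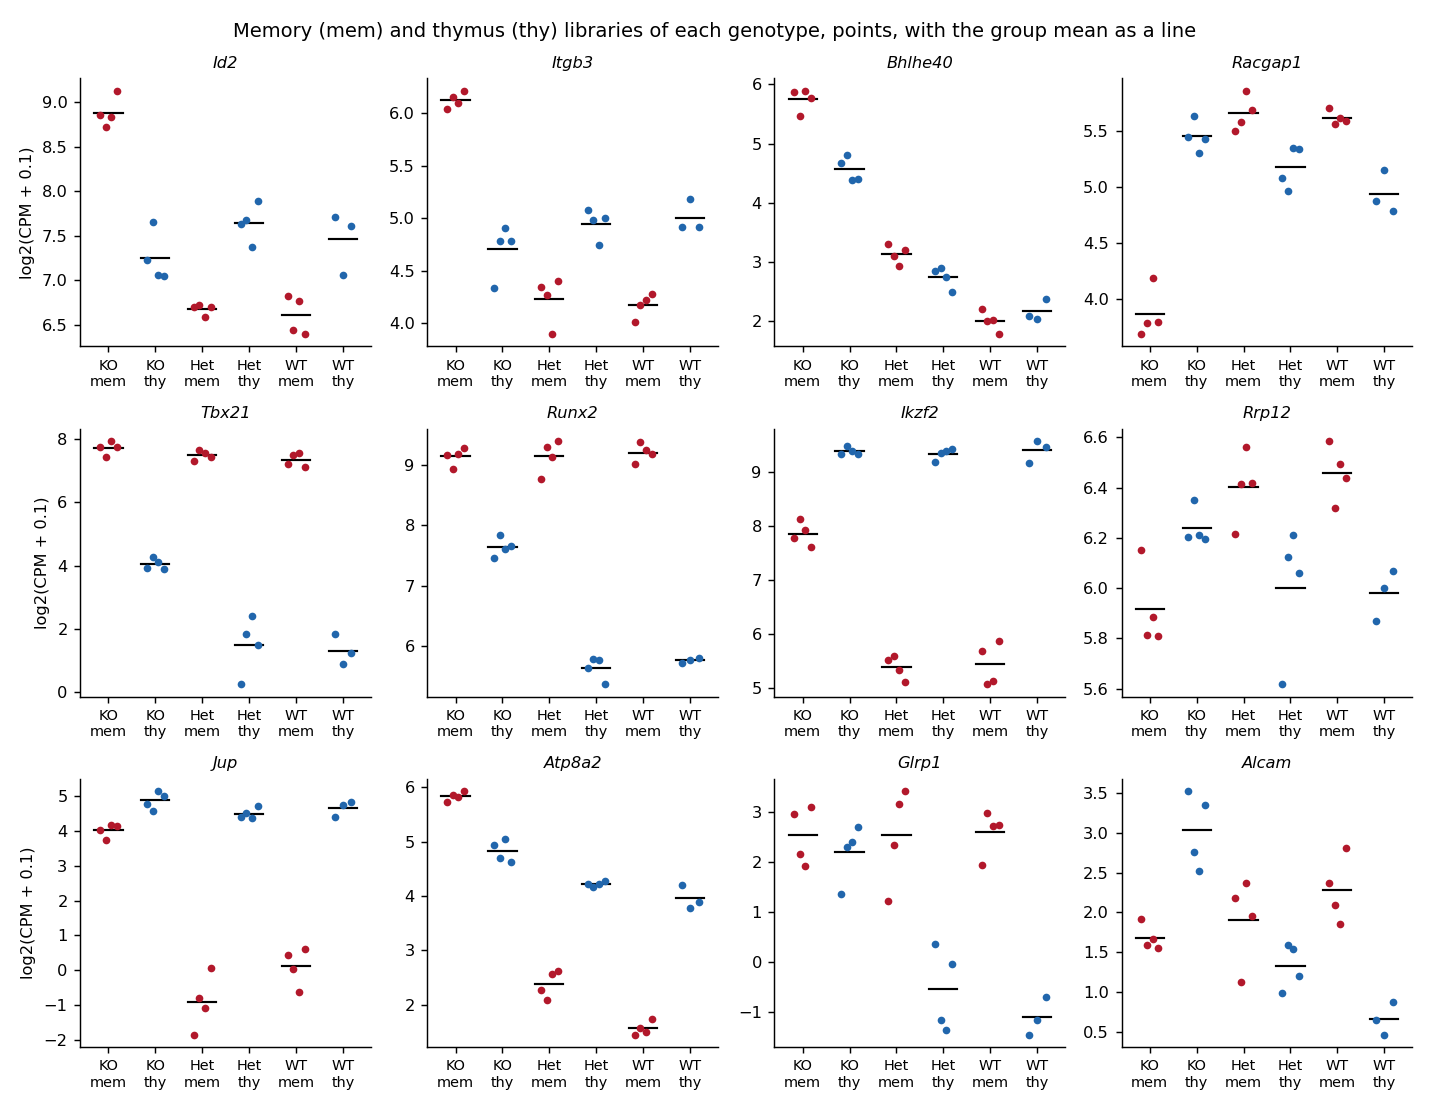
Log2(CPM + 0.1) of 12 genes in the memory and thymus libraries of KO, Het and WT, with a line at each group's mean. Each panel has its own vertical axis. Id2 and Itgb3 are higher in KO memory than in KO thymus and lower in memory in Het and WT, Racgap1 shows the reverse, and Tbx21 and Runx2 stand higher in KO thymus than in the thymus of the other genotypes.

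In the ribosome biogenesis list every genotype difference that was called was negative. In KO none of its 30 genes rose and 11 fell, where 23.6% of all tested genes rose and 23.9% fell. In Het 12 rose and 3 fell (median 0.15), where 22.2% of all tested genes rose and 22.6% fell. In WT 13 rose and 1 fell (median 0.26), where 19.3% of all tested genes rose and 20.3% fell. The KO minus WT difference was called for 12 genes, all negative, and the KO minus Het difference for 11, all negative. Over all tested genes 5.14% and 4.70% were called in that direction. Without the filter on low counts the KO minus WT calls of Nop56, Nolc1 and Npm1 were lost (adjusted p of 0.154, 0.0529 and 0.0924). Rrp12, a pre-ribosome export factor, was at 71.0, 56.1, 59.0 and 56.0 CPM in KO memory and at 73.7, 81.4, 74.1 and 73.3 CPM in KO thymus. It fell by 0.32 in KO and rose by 0.48 in WT, a difference of -0.80 ± 0.14 (adjusted p = 7.78e-05), and its WT means were 88.1 and 63.1 CPM in memory and thymus. Fbl, which encodes the nucleolar methyltransferase fibrillarin, differed by -0.57 ± 0.13 (adjusted p = 0.00330) from WT and by -0.37 from Het, where it was not called (adjusted p = 0.0704). Hk2 differed by -1.29 ± 0.24 from WT (adjusted p = 0.000189) and by -1.35 ± 0.23 from Het (adjusted p = 6.84e-05), with 6.01 and 17.5 CPM in KO memory and KO thymus and 6.94 and 8.36 CPM in the WT subsets. In the heat shock list 5 of 18 genes differed from WT, all negative.

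Other list members also differed between KO and WT, in both directions. Acvr2a rose by 2.61 in KO and 1.11 in WT (1.49 ± 0.28, adjusted p = 0.000347), with 100 and 16.4 CPM in KO memory and KO thymus and 17.9 and 8.34 CPM in the WT subsets. Sh2d1a rose by 2.46 in KO and 0.98 in WT (1.48 ± 0.24, adjusted p = 2.73e-05), and Myb by 1.45 in KO and 0.27 in WT, where it was not called (1.18 ± 0.28, adjusted p = 0.00546). Nr4a1 fell by 1.69 in KO and 2.65 in WT (0.96 ± 0.25, adjusted p = 0.0113), and Igfbp4 fell by 4.38 in KO and 2.36 in WT (-2.02 ± 0.39, adjusted p = 0.000817). Several of the leading KO changes were not called apart from WT, among them Ccr9 (-5.27 in KO and -5.56 in WT, adjusted p = 0.766), Tox (-1.74 and -1.81, adjusted p = 0.834), Stat4 (2.19 and 2.11, adjusted p = 0.834) and Il2rb (1.92 and 2.03, adjusted p = 0.878). A p that misses the threshold does not show that these changes were equal.

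KO naive cells were read beside both groups. KO naive differed from KO thymus at 4543 genes (44.1%) and KO memory from KO naive at 1782 genes (17.3%). These comparisons share their libraries with the one above, and levels are given side by side. Ccr9 averaged 1.69 CPM in KO memory, 30.9 CPM in KO naive and 64.2 CPM in KO thymus. Tcf7l2 averaged 0.329, 9.37 and 14.2 CPM in the same 3 groups, and Igfbp4 2.05, 16.4 and 39.8 CPM. For these genes the KO naive mean lay between the other means, while Slc15a1, at 0.0928, 0.270 and 15.1 CPM, was low in KO naive as well. Eomes averaged 315, 139 and 45.4 CPM in KO memory, KO naive and KO thymus and Tbx21 211, 75 and 16.7 CPM, with KO naive between the others. Id2 averaged 476 CPM in KO memory, 152 CPM in KO naive and 154 CPM in KO thymus. S1pr1 was highest in KO naive, at 625 CPM in KO memory, 738 CPM in KO naive and 416 CPM in KO thymus. Zbtb16 was on average highest in KO naive, with 0.444 CPM in KO memory, 9.27 CPM in KO naive and 6.80 CPM in KO thymus. In the replication list all 35 tested genes were lower in KO naive than in KO thymus, where 21.7% of all tested genes were, and 22 were higher in KO memory than in KO naive, where 8.69% were.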

How the data were processed

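Poly(A) RNA of sorted CD8 T cell subsets was sequenced as single reads from a stranded library kit on a HiSeq2500, per the labels' protocols. The authors deposited 1 table of raw counts per Ensembl gene for 35 libraries. TopHat2 2.1.0, TopHat, HTSeq 0.9.1 and the GRCm38/mm10 build are named in the submitters' processing notes. Which annotation release was counted, and whether HTSeq used the strand, is not given in the sources used here. Overlapping genes, antisense genes and genes with close copies are therefore uncertain. Gene symbols and coordinates came from GENCODE M21, which named 52403 of 52636 identifiers.

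Libraries were grouped by the genotype and subset in their labels. The filterByExpr function of edgeR 4.0.16 (R 4.3.3) over the 9 groups kept 10296 of the 19776 genes with counts. TMM scaling and 1 robust quasi-likelihood fit of group means over all 35 libraries followed, with 26 residual degrees of freedom. Comparisons within KO and the tests of the memory-thymus difference in KO minus that in WT or Het were contrasts of this fit. All p-values are from edgeR unless stated, adjusted by the Benjamini-Hochberg method over all tested genes, and called under 0.05. Intervals and floors of 3 counts cover counting error only, since reads without molecular identifiers are not independent molecules. Totals ran between 4809509 and 16879636 over the series, so a gene of 1 CPM rests on few reads and is the least precise. No pair of replicates agreed within sampling noise, with a chi-square per gene of at least 3.98 in each of 51 pairs. The fit was tested on simulated data.

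Named genes were a set of key genes, the 12 highest and 12 lowest changes among called genes that had no overlap and a mean log2 CPM not under 1, the 6 highest and 6 lowest genotype differences, up to 4 called members of each list, and members named for what they encode. Genes of the last kind, and those under other observations, were chosen after their values were seen. The members and the lists were chosen with earlier results of these data known. Some genes that meet this rule, and a further surface marker of the sort, are not reported here. Alternatives were another scaling, other filters, non-robust estimates, a replicate block, sex as a covariate, fewer libraries, DESeq2 1.42.0 and each library left out.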

Additional observations from a re-analysis of the deposited data

Results flagged for a closer look

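In 10 of 236 pairs of a named gene and a KO group, 1 library stood apart from the other 3. The limit used is Dixon's 95% critical value, at which chance sets about 1 in 20 groups of normally distributed values apart. That rate does not hold for Arpp21 and Rag1 in KO memory, where all the few counts lay in 1 library. In KO memory, Arpp21 was at 0.0595 CPM in replicate 1 (0 in the others), Fbln1 was at 0.888 CPM in replicate 3 (0.141 to 0.238), Plk1 at 9.02 CPM in replicate 3 (3.63 to 4.51), Rag1 at 0.205 CPM in replicate 3 (0 in the others) and Smo at 1.31 CPM in replicate 2 (0.423 to 0.547). In KO thymus, Bbc3 was at 1.24 CPM in replicate 3 (2.39 to 2.56), S100a6 at 37 CPM in replicate 3 (27.3 to 28.3), Nr4a1 at 28.5 CPM in replicate 2 (22.8 to 23.3), Rrp12 at 81.4 CPM in replicate 2 (73.3 to 74.1) and Vangl2 at 28.4 CPM in replicate 4 (21.5 to 22.4).

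The memory-thymus difference of 31 named genes was apart in KO and WT by the test of that difference, as the report describes with the levels. Values are KO minus WT on the log2 scale. Positive differences were Gstm1 3.97, Jup 3.71, Atp8a2 3.43, Nav2 3.20, Dapk1 3.07, Id2 2.49, Ikzf2 2.42, Itgb3 2.25, Sox4 1.76, Acvr2a 1.49, Sh2d1a 1.48, Bhlhe40 1.36, Myb 1.18, Bcl6 1.08 and Nr4a1 0.96. Negative differences were Cxcr3 -3.71, Glrp1 -3.66, Alcam -3.13, S100a6 -2.63, Atxn1 -2.58, Tbx21 -2.49, Racgap1 -2.25, Igfbp4 -2.02, Runx2 -1.94, Itgae -1.74, Eomes -1.49, Hk2 -1.29, Cd6 -0.90, Cd5 -0.85, Rrp12 -0.80 and Fbl -0.57. The difference of KO minus Het was 4.65 for Jup, 2.60 for Id2, 2.11 for Itgb3 and -1.35 for Hk2.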

How the results depend on the processing

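The counts of called genes in KO memory against KO thymus and in the differences from WT and Het stayed within 1.5 times of those reported under RLE scaling, mean log centring, no or a stricter filter, non-robust estimates, the sex covariate, only the libraries of the contrast and DESeq2. With a log2 fold change beyond 1 also required, 741 genes were higher and 836 lower. With single libraries left out, higher genes ranged between 2035 and 2270 and lower genes between 2299 and 2487. The KO minus WT difference then had 297 to 391 higher and 405 to 519 lower genes, the fewest without WT thymus replicate 2, and the KO minus Het difference 310 to 362 higher and 424 to 483 lower genes. Without a filter, 54.6% of the calls of KO minus Het were higher, against 43.6% with it. With a replicate block, 2516 genes were higher and 2525 lower, 493 and 598 in KO minus WT and 434 and 550 in KO minus Het. Whether the numbers pair the libraries is not given by the labels. Deviations of same-numbered memory and thymus libraries correlated at 0.0601, 0.102, 0.313 and 0.155 in KO and at 0.147, 0.132, 0.225 and 0.0495 in Het. In WT they correlated at 0.181, 0.168 and -0.118 for replicates 1, 2 and 3. By Xist, replicate 3 of WT memory was female and replicate 3 of WT thymus was male. As not every pair passed 0.1, the numbers were not taken as pairs. KO memory replicates 2, 3 and 4 correlated best with their own number and replicate 1 with KO thymus replicate 2 (0.0881), and replicate 3 was the female one in each KO and Het subset. The Satb1 call was also lost with mean log centring (adjusted p = 0.0538) and without a filter (adjusted p = 0.214), and the cause was not tested. Low counts limit Rag2, S1pr5 and most granzymes, which could not be tested.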

Other observations

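Further genes of the thymic side, chosen after their values were seen, had the layout of the decreases described above. Arpp21, an RNA-binding protein of double-positive thymocytes, was at 0.0595, 0, 0 and 0 CPM in KO memory and at 4.82, 5.89, 3.91 and 7.26 CPM in KO thymus, on 1 count and 252 counts. Dntt, which encodes the terminal transferase that adds bases at receptor gene joints, was at 0.178, 0.281, 0.137 and 0 CPM in KO memory and at 3.17, 1.79, 3.5 and 4.23 CPM in KO thymus (-4.20 ± 0.46, edgeR adjusted p = 6.48e-10). For both genes every KO memory library was below every KO thymus library. Cd200, a ligand that restrains myeloid cells, fell by 3.23 ± 0.48 (edgeR adjusted p = 2.97e-07).

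On the other side, Bmpr1a, a receptor of bone morphogenetic proteins, was at 7.26, 6.47, 5.06 and 9.3 CPM in KO memory and at 0.551, 1.02, 0.686 and 1.59 CPM in KO thymus (2.79 ± 0.29, edgeR adjusted p = 8.38e-11). Every KO memory library was above every KO thymus library.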
